A study of Mus musculus with 30 samples.

Results

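Slc6a13 was measured by 1 probe of the 16896 on the arrays, the only probe annotated to that gene, and it was read on all 30 arrays. The mice were 12 weeks old and carried a deletion of cyclooxygenase-1 (COX-1 KO) or of cyclooxygenase-2 (COX-2 KO), a single deleted copy of cyclooxygenase-2 (COX-2 HET), or no deletion (COX-1 WT and COX-2 WT, the wild-type mice of each line). Hippocampus and cerebral cortex were taken from each of these 5 genotypes, which gives 10 groups of 3 arrays, and the labels name no treatment. The null and wild-type mice were killed with pentobarbital. They shared the same mixed genetic background, and the lines were bred apart. Wild-type mice came from wild-type parents and null mice from null fathers and heterozygous mothers, so genotype and parentage cannot be told apart. The background, breeding and killing of the COX-2 HET mice are not given in the sources used here. The deleted genes, Ptgs1 and Ptgs2, were not analysed here, and no array was checked against its label through them.

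Slc6a13 encodes a sodium- and chloride-dependent plasma membrane transporter that carries GABA, the main inhibitory transmitter of the brain, and also taurine back into cells. The older mouse nomenclature calls its product GAT3, while the rat and human nomenclature calls the same transporter GAT2 and gives the name GAT3 to the product of Slc6a11. In the mouse brain it is known chiefly from the leptomeninges and from vessel-associated cells, and it is abundant in liver and kidney. The gene (Entrez 14412) lies on chromosome 6 of the GRCm38.p6 assembly, at chr6:121300288-121337721, and spans 37434 bp. The related Slc6a12, a betaine and GABA transporter, begins 4853 bp beyond its end, and Slc6a11 lies about 7 Mb away on the same chromosome. Neither Slc6a11 nor Slc6a12 had a probe with its symbol, and of the 5 listed GABA transporters only Slc6a13 had such a probe. The sequence spotted on the membrane was not used here, and which exons it covers was not analysed.

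Values are Z scores, in which the natural log intensity of a spot is expressed as its distance from the array mean in units of the array SD. A difference of 1 in Z is therefore 1 SD of an array, and it is not a fold change. The Slc6a13 spot was bright on every array, with a mean Z of 2.04 and single arrays between 1.846 and 2.209. The pooled SD among the 3 arrays of a group was 0.0639, and the SD of the 10 group means was 0.0799. Among the 4128 probes with a mean Z above 0 in the same part of the table, the median values of these measures were 0.0577 and 0.0546, and 65.8% and 81.8% of the probes had lower ones than Slc6a13. Because the tissue was taken whole, fewer cells of a type and less RNA per cell cannot be told apart. Array medians lay between -0.0721 and -0.0419, arrays of a group correlated with r of 0.984 to 0.993 across probes, and the first part of the table, to which Slc6a13 does not belong, held copied values on 5 of the 6 arrays of COX-1 cortex. That part was left out of every test that used those arrays.

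The group means ran from the COX-2 HET cortex at 2.163 ± 0.0397 to the COX-2 HET hippocampus at 1.925 ± 0.0684 (SD, n = 3 each). Next came the COX-1 WT cortex at 2.133 ± 0.0807 and the COX-2 KO cortex at 2.122 ± 0.0278. The 4 hippocampal groups other than COX-2 HET lay together in the middle, with COX-1 KO at 2.061 ± 0.0410, COX-2 WT at 2.050 ± 0.0715, COX-2 KO at 2.038 ± 0.0508 and COX-1 WT at 2.021 ± 0.0611. The COX-1 KO cortex at 1.968 ± 0.1002 and the COX-2 WT cortex at 1.951 ± 0.0640 followed. Every group overlapped the next one in this order, and no neighbouring means differed by more than 0.0603. The cortical groups therefore held both high and low places, while 4 of the 5 hippocampal groups stayed within 0.0402 of one another.

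**Figure D1:**
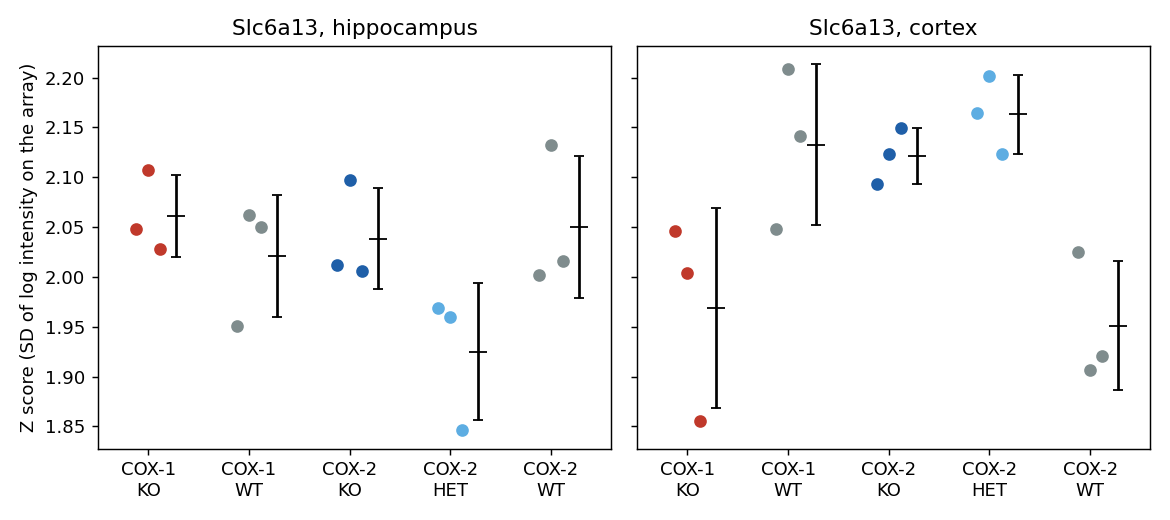
Slc6a13 Z score (vertical axis, units of the SD of log intensity on an array) on each array, with hippocampus in the left panel and cerebral cortex in the right panel. Points are arrays, and the bars beside them give the group mean ± SD (n = 3). In the cortex the COX-1 KO arrays (1.855 to 2.046) lie below the COX-1 WT arrays (2.048 to 2.209), while the COX-2 KO arrays (2.093 to 2.149) and the COX-2 HET arrays (2.123 to 2.202) lie above the COX-2 WT arrays (1.907 to 2.025).

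In the cerebral cortex, Slc6a13 had the values 2.046, 2.004 and 1.855 in COX-1 KO mice, against 2.048, 2.209 and 2.141 in COX-1 WT mice. The groups did not overlap, although the highest null array lay only just below the lowest wild-type array and 1 null array, replicate 3, lay well below the others. Of the 4102 probes tested in this comparison, 8.80% were lower in COX-1 KO with no overlap. The difference was -0.165 (SE 0.0544, 95% confidence interval -0.281 to -0.0482), and it did not pass the threshold of 0.05 over all probes in limma (adjusted p = 0.196). The study's own rule asks for a mean Z above 0, a Z test P under 0.05 and a z ratio beyond 1.5, where the z ratio was computed here as a probe's difference divided by the SD of the differences of all probes. The methods' formula names the SD of an array as the divisor instead, which is 1 for Z scores, and with that divisor the rule called 0 probes, Slc6a13 included, in each of the 8 genotype comparisons. From here on the rule is the form with the SD of the differences. Slc6a13 met it with a z ratio of -1.86, as did 2.95% of the tested probes in the same direction. The SD in this ratio, 0.0887, spans the copied probes, and with the SD of the second part alone, 0.111, the z ratio was -1.48 and the rule was not met. The rule was also not met without COX-1 WT replicate 2 (-1.34) or 3 (-1.67) or without COX-1 KO replicate 2 (-1.69) or 3 (-1.35). At -1.67 and -1.69 the z ratio was beyond 1.5, and it was the Z test P that was not under 0.05.

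In COX-2 KO cortex the values were 2.093, 2.123 and 2.149, against 2.025, 1.907 and 1.921 in COX-2 WT cortex. All null arrays lay above all wild-type arrays, as they did for 8.72% of the 8003 probes tested. The difference was 0.170 (SE 0.0564, 95% confidence interval 0.0501 to 0.291), with an adjusted p of 0.419 in limma. No probe passed limma's adjusted threshold in this comparison, where 754 probes had an unadjusted p under 0.05. The z ratio was 1.68 and the study's rule was met, as it was by 2.69% of the tested probes in this direction. It was not met without COX-2 WT replicate 2 (1.33) or 3 (1.44).

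COX-2 HET cortex gave 2.165, 2.202 and 2.123, against the same COX-2 WT arrays of 2.025, 1.907 and 1.921. These arrays too lay entirely above wild type, which held for 6.63% of the 8011 probes tested. The difference was 0.212 (SE 0.0564, 95% confidence interval 0.0916 to 0.332, adjusted p = 0.479 in limma, which called 0 probes here and gave 608 an unadjusted p under 0.05). The z ratio was 1.98, and the study's rule was met, as it was by 1.37% of the tested probes in this direction. Both COX-2 comparisons share the same wild-type arrays. Set against each other, COX-2 KO and COX-2 HET cortex overlapped and differed by -0.0415 (95% confidence interval -0.162 to 0.0788, adjusted p = 0.832 in limma).

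The deletions thus went with opposite signs in the cortex, lower in COX-1 KO and higher in COX-2 KO, each against its own wild type. The difference between these effects was 0.335 (SE 0.0769, 95% confidence interval 0.1704 to 0.4997). Slc6a13 stood 18th of the 4109 probes tested when ordered by p, and the adjusted p was 0.140 in limma, which called 0% of these probes, 437 of them with an unadjusted p under 0.05. With all 30 arrays in the fit or with a trend of the variance on intensity, the same difference gave adjusted p values of 0.0317 and 0.0281. A lower value in COX-1 KO and a higher value in COX-2 KO, both without overlap, was seen for 34 of the 4109 probes (0.827%), and for 25 (0.608%) the COX-2 HET arrays were higher without overlap as well. The study's rule was met in both opposite directions by 10 probes (0.243%), Slc6a13 among them.

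The wild-type cortices of the lines were themselves apart. COX-2 WT cortex had 2.025, 1.907 and 1.921, against 2.048, 2.209 and 2.141 in COX-1 WT cortex, again with no overlap, a pattern that 10.5% of the 4103 tested probes showed in this direction. The difference was -0.182 (SE 0.0544, 95% confidence interval -0.298 to -0.0653, adjusted p = 0.101 in limma), as large as either deletion effect, and the adjusted p was 0.0440 with all 30 arrays in the fit and 0.0392 with the intensity trend. When each null group was set against the wild type of the other line, the values came close together. COX-1 KO minus COX-2 WT was 0.0171 (95% confidence interval -0.0993 to 0.133) and COX-2 KO minus COX-1 WT was -0.0113 (-0.128 to 0.105). With the pooled wild types of the lines as control, the z ratios of COX-1 KO, COX-2 KO and COX-2 HET cortex were -0.968, 0.848 and 1.04, and the study's rule was met in none of them.

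In the hippocampus the null mice stayed close to their wild types. COX-1 KO hippocampus had 2.048, 2.107 and 2.028, against 1.951, 2.062 and 2.050 in COX-1 WT hippocampus, with overlap and a difference of 0.0402 (95% confidence interval -0.0704 to 0.151, adjusted p = 0.750 in limma). COX-2 KO hippocampus had 2.012, 2.097 and 2.006, against 2.002, 2.132 and 2.016 in COX-2 WT hippocampus. These groups covered the same range, and their difference was -0.0115 (95% confidence interval -0.122 to 0.0991, adjusted p = 0.944). The difference between the effects of the deletions was -0.0517 (95% confidence interval -0.208 to 0.105, adjusted p = 0.887), and the wild-type groups of the lines differed by 0.0288 (-0.0818 to 0.139, adjusted p = 0.780). The z ratios of the COX-1 and COX-2 deletions were 0.351 and -0.110, short of the study's threshold.

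The COX-2 HET hippocampus was the group that stood lowest, with 1.969, 1.960 and 1.846, against 2.002, 2.132 and 2.016 in COX-2 WT hippocampus. The groups did not overlap, which was so for 14.7% of the 8041 tested probes in this direction. The difference was -0.125 (SE 0.0517, 95% confidence interval -0.235 to -0.0143, adjusted p = 0.211 in limma), and the z ratio of -1.05 did not meet the study's rule. COX-2 KO arrays lay above the COX-2 HET arrays of this region without overlap, as for 11.4% of the probes tested, and the difference of 0.113 did not pass limma's threshold (95% confidence interval 0.00276 to 0.224, adjusted p = 0.289). The null group thus lay closer to wild type than the heterozygous group did, on the means, but neither difference passed the test.

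Between the regions, a single comparison passed limma's adjusted threshold. COX-2 HET hippocampus (1.969, 1.960 and 1.846) lay wholly below COX-2 HET cortex (2.165, 2.202 and 2.123), by -0.238 (SE 0.0535, 95% confidence interval -0.348 to -0.128, adjusted p = 0.00487), in a comparison in which limma called 12.6% of the 8008 tested probes and 17.4% were lower without overlap. The other genotypes gave hippocampus minus cortex differences of -0.112 in COX-1 WT, 0.0931 in COX-1 KO, 0.0987 in COX-2 WT and -0.0832 in COX-2 KO, with adjusted p values of 0.110, 0.201, 0.276 and 0.488 in limma. Hippocampus and cortex overlapped in each of these genotypes, and the signs were mixed. The mean over the 5 genotypes was -0.0483 (95% confidence interval -0.0962 to -0.000324, adjusted p = 0.117). Without replicate 1 of the COX-1 WT cortex, the difference in COX-1 WT was -0.154 with an adjusted p of 0.0444, and without replicate 3 of the COX-1 KO cortex the mean was -0.0596 with an adjusted p of 0.0372.

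The test of whether a genotype effect differed between the regions was added after the values were seen. The COX-2 HET effect was lower in hippocampus than in cortex by -0.337 (SE 0.0757, 95% confidence interval -0.493 to -0.181, adjusted p = 0.0104 in limma, in a test that called 4.38% of the probes). The COX-1 KO effect differed by 0.205 (95% confidence interval 0.0532 to 0.356, adjusted p = 0.130) and the COX-2 KO effect by -0.182 (-0.338 to -0.0259, adjusted p = 0.180). All 3 deletion genotypes therefore had an effect of opposite sign in the regions, although the small hippocampal effects of the null mice changed sign under some alternatives, and the difference passed the adjusted threshold for COX-2 HET alone.

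**Figure D2:**
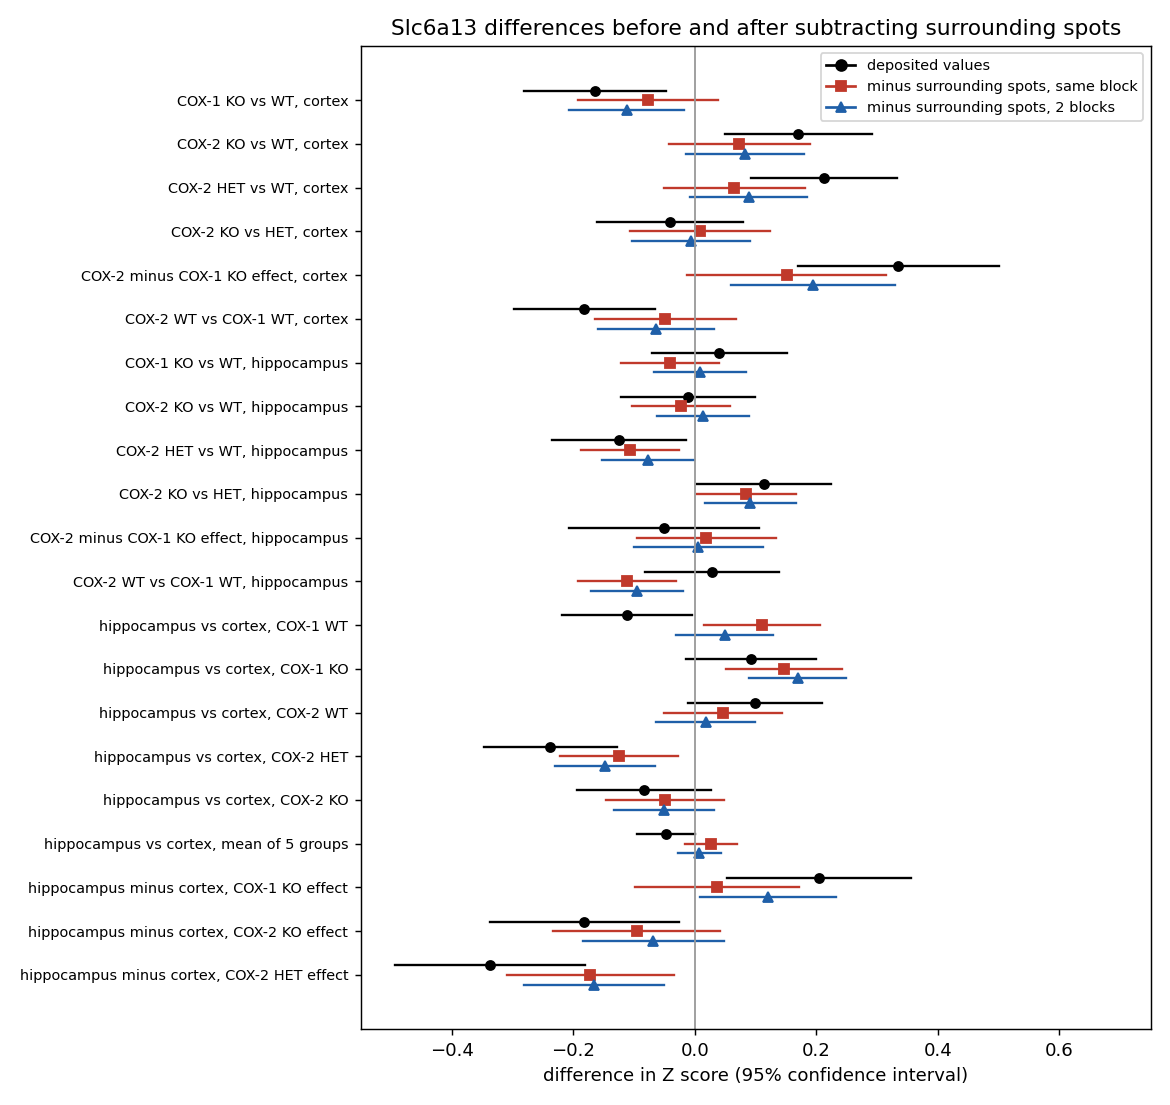
Differences in Slc6a13 Z score (horizontal axis) with 95% confidence intervals from limma, for each comparison named on the vertical axis. Black circles use the deposited values, red squares the values after the median deviation of 27 surrounding spots of the same block was subtracted on each array, and blue triangles the same with 55 spots of 2 blocks. In the cortex the COX-2 HET effect of 0.212 becomes 0.0649 and 0.0883, and the difference between the deletion effects of 0.335 becomes 0.151 and 0.194.

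The probes whose values ran most like those of Slc6a13 were picked among 2361 probes with 1 gene symbol, a mean Z above 0 and own values on all arrays. The highest r belonged to a probe annotated to Snrpe, a core protein of the spliceosomal small nuclear ribonucleoproteins (Pearson r = 0.923 over 30 arrays). The paper names the clone of this probe as a ring finger protein instead, and which name is right was not tested. Next came Cryl1, the lambda-crystallin homologue of sugar metabolism (0.896), and Tiparp, a mono-ADP-ribosyltransferase (0.832). Atrnl1, an attractin-like membrane protein (0.830), and Glo1, the glyoxalase that detoxifies methylglyoxal (0.825), followed. The most opposite were Fubp1, a single-stranded DNA-binding regulator of Myc (-0.712), Ctdspl2, a putative phosphatase (-0.644), and D7Ertd128e (-0.631). The median r of the 2361 probes was -0.0781, and its 5th and 95th percentiles were -0.4237 and 0.4004. Over the 10 group means, r was 0.970, 0.925, 0.838, 0.815 and 0.885 for the 5 most like probes and -0.801, -0.833 and -0.857 for the 3 most opposite, each in the order given. Correlations here are across arrays that share their groups, so they are descriptions. In the cortex the Snrpe probe differed by -0.252 in COX-1 KO, 0.218 in COX-2 KO and 0.232 in COX-2 HET, each against its wild type. Cryl1 differed by -0.139, 0.125 and 0.120 in the same order, and all these signs were those of Slc6a13. The paper lists the Snrpe clone, under its other name, with Slc6a13 among cortical genes that changed oppositely in the null lines. Further probes of these 5 genes existed for Tiparp and Glo1 alone, and their values on the COX-1 cortex arrays were not used, so they could be compared over the other 24 arrays only. There the 2 further Tiparp probes (mean Z of 2.0 and -1.29) had r of -0.121 and -0.100 with Slc6a13, beside 0.854 for the like Tiparp probe, and the further Glo1 probe (mean Z of 0.142) had 0.110, beside 0.789. Of the opposite genes, Fubp1 and Ctdspl2 had further probes too. Those of Fubp1 had r of -0.0296 over 24 arrays and 0.107 over 30. Those of Ctdspl2 had -0.0934 and -0.0845 over 24 arrays and -0.270 over 30.

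Slc6a13 is row 16384 of the table, and the like probes Glo1, Snrpe, Tiparp, Cryl1 and Atrnl1 are rows 15326, 15846, 15862, 15878 and 16448. Of all 4127 other probes with a mean Z above 0 in the second part of the table, with or without a gene name, the one most like Slc6a13 was row 15856, exactly 528 rows earlier, with r = 0.938 over the 30 arrays and 0.870 over deviations from the group means. Of the 20 most like, 14 lay in the last 1056 rows, which hold 11.3% of the probes compared. Across all rows of the second part, deviations from the group means correlated on average with r = 0.430 at a distance of 1 row, 0.414 at 22 rows and 0.319 at 528 rows, against 0.0681 at 264 rows and an average of 0.0766 over distances of 1 to 1000 rows. Read as a grid, the table then has blocks of 528 rows, made of 24 lines of 22 spots, and Slc6a13 stands in the first line of the last block, at place 16. This grid was inferred from the values, and the layout of the membrane is not given in the sources used here.

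**Figure D3:**
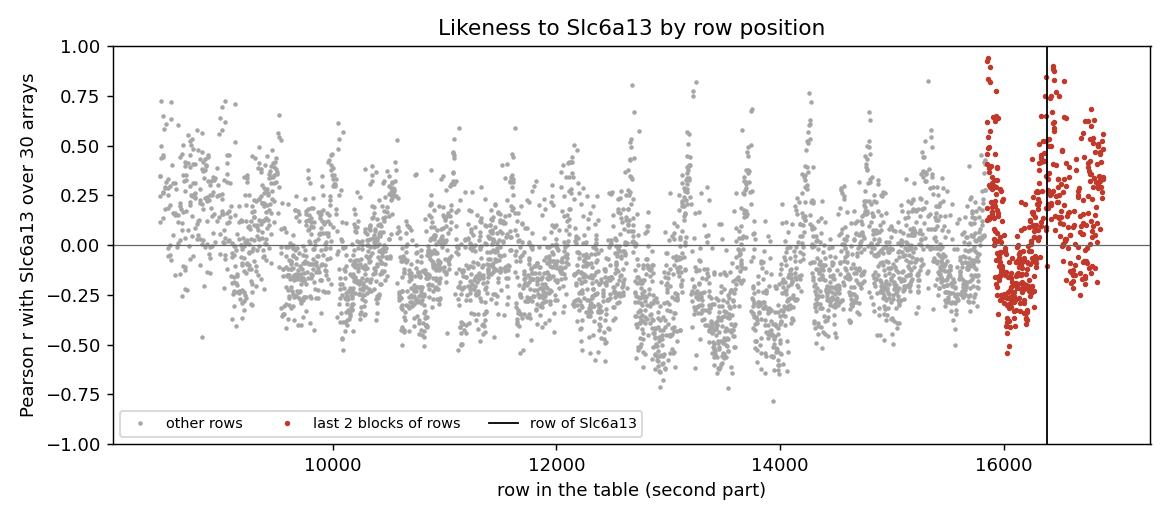
Pearson r with Slc6a13 over 30 arrays (vertical axis) for each probe with a mean Z above 0 in the second part of the table, by its row (horizontal axis), with the last 2 blocks of 528 rows in red and the row of Slc6a13 as a vertical line. The correlation rises and falls with a period of 528 rows, and 14 of the 20 highest values lie in the red rows.

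Outside the last 2 blocks, r also varied with the line, but the typical probe of the first lines did not run like Slc6a13. In the first 14 blocks, r with Slc6a13 was above 0.5 for 7.23% of the 581 probes in the first 4 lines of a block and for 2.06% of the 535 probes in the last 4 lines. In the 16 lines between, it was above 0.5 for 0.471% of 2546 probes. The median r was -0.0908 in the first 4 lines, -0.139 in the 16 lines between and 0.156 in the last 4. In the first 4 lines the median cortical difference was 0.0473 in COX-1 KO, 0.0425 in COX-2 KO and -0.00417 in COX-2 HET, opposite in sign to Slc6a13 in COX-1 KO and COX-2 HET. In the last 4 lines it was -0.0421, -0.0179 and 0.00814 in the same order, opposite to Slc6a13 in COX-2 KO alone. In the 16 lines between it was 0.0130, -0.0210 and -0.0112, opposite in each.

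In the cortex, spots around Slc6a13 moved with it between groups, and in the hippocampus the signs were mixed. Within 3 lines and 3 places of it in the same block lie 27 spots, and their median deviation from their own means correlated with Slc6a13 over the 30 arrays with r = 0.602, and with r = 0.637 when the adjacent block was added (55 spots). In the cortex the median shift of the 27 spots was -0.0874 in COX-1 KO against wild type, with the sign of Slc6a13 in 20 spots. It was 0.0971 in COX-2 KO, with the sign of Slc6a13 in 23, and 0.147 in COX-2 HET, with its sign in 26. The difference between the effects of the deletions was 0.185, and COX-2 WT against COX-1 WT gave -0.133. Each of these shifts was smaller than that of Slc6a13. Row 15856, which was singled out by its r with Slc6a13, differed by -0.198, 0.178 and 0.238 in the cortex of COX-1 KO, COX-2 KO and COX-2 HET mice. In the hippocampus the median shift of the 27 spots was 0.0810 in COX-1 KO, beside 0.0402 for Slc6a13, with its sign in 24 spots. It was 0.0110 in COX-2 KO, beside -0.0115, with its sign in 11, and -0.0177 in COX-2 HET, beside -0.125, with its sign in 14. Between the regions of COX-1 KO mice the spots shifted by -0.0534 and Slc6a13 by 0.0931, with the same sign in 11 spots.

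**Figure D4:**
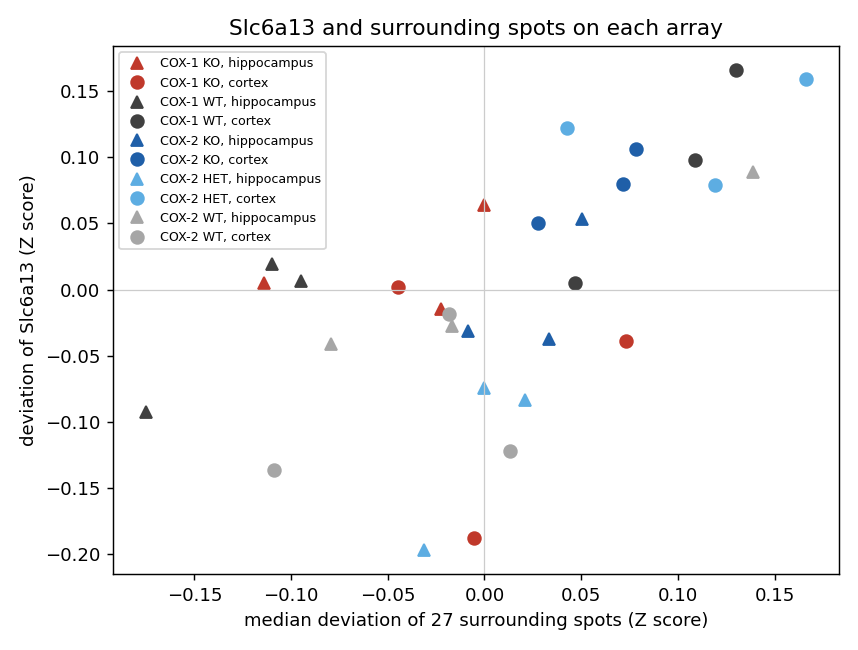
Deviation of Slc6a13 from its mean over the 30 arrays (vertical axis, Z score) against the median deviation of the 27 spots around it (horizontal axis, Z score), 1 point per array, with triangles for hippocampus and circles for cortex. The COX-2 HET cortex arrays (surrounding medians of 0.0425 to 0.166) are high on both axes, while COX-1 KO cortex replicate 2 has a surrounding median of 0.0734 and a Slc6a13 deviation of -0.0392 (r = 0.602 over all arrays).

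When the median deviation of the surrounding spots was subtracted on each array and all probes were refitted, a step added after the values were seen, the cortical differences shrank. COX-1 KO minus COX-1 WT became -0.0772 (95% confidence interval -0.193 to 0.0381) with the 27 spots of the block and -0.112 (-0.207 to -0.0174) with 55 spots of 2 blocks. COX-2 KO minus COX-2 WT became 0.0733 (-0.0424 to 0.189) and 0.0820 (-0.0148 to 0.179), and COX-2 HET minus COX-2 WT became 0.0649 (-0.0509 to 0.181) and 0.0883 (-0.00856 to 0.185). The z ratios were then -0.953 and -1.38 in COX-1 KO, 0.854 and 0.944 in COX-2 KO and 0.646 and 0.871 in COX-2 HET, so the study's rule was met in none. The difference between the effects of the deletions became 0.151 (adjusted p = 0.510 in limma) and 0.194 (adjusted p = 0.335), and the wild-type cortices differed by -0.0485 and -0.0638. All of these values kept the sign they had before.

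The regional difference of COX-2 HET became -0.125 with the 27 spots (adjusted p = 0.0829 in limma) and -0.148 with the 55 spots (adjusted p = 0.0164), and the regional difference of its effect became -0.172 and -0.166 (adjusted p = 0.126 and 0.0824). COX-1 KO hippocampus minus cortex, 0.0931 before, became 0.146 and 0.169, with adjusted p values of 0.0199 and 0.00213, in fits in which limma called 29.8% and 27.5% of the tested probes. The SD among arrays of a group was 0.0579 and 0.0462 after these steps, against 0.0639 in the deposited values. Whether the surrounding shifts arose on the membrane or in the RNA was not tested. The paper also measured Slc6a13 by quantitative PCR, in the RNA used for its arrays and in RNA of further mice. It reports a lower level in COX-1 KO and a higher level in COX-2 KO cortex, each against its wild type. In the hippocampus it reports no significant difference.

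Other genes of GABA handling and of the SLC6 family were thinly covered, by 26 probes beside that of Slc6a13. A gene is called measured here if a probe carried its symbol alone. Of the 16896 probes, 6797 had no symbol and 436 had several. In 12 comparisons within a region, limma tested them 93 times and called 0, with 12 unadjusted p values under 0.05 (12.9%), beside 7.55% to 22.7% of all tested probes in these comparisons. A list of 12 genes of GABA synthesis and breakdown also took in genes of glutamate and glutamine. Of the 12 genes 7 were measured, by 12 probes. These were Abat, which breaks down GABA, and Glud1, Glul, Slc1a3, Slc38a1, Slc38a2 and Slc38a3, which convert or carry glutamate or glutamine. In the COX-2 KO cortex 10 of these probes were above wild type, with a median difference of 0.0270, beside -0.00316 over all probes, and none met the study's rule. Only 5 of the 12 probes had the mean Z above 0 that the rule asks for. In the COX-1 KO cortex 4 of the 9 usable probes were above wild type, with a median of -0.0635, beside 0.00269. Of these 9 probes, 2 had a mean Z above 0. Glul, the glutamine synthetase of astrocytes, met the rule in the COX-2 KO hippocampus, with a difference of 0.217, in a comparison where 2.06% of the tested probes did so in this direction.

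Of 19 listed GABA-A receptor subunits, only Gabra3 had a probe with its symbol. Its mean Z was -0.999, below the level the study's rule and the limma adjustment admit. The paper reports a lower GABRB1 in the COX-2 KO hippocampus from its arrays. A subunit without a symbol here may therefore still have been spotted. Of 16 genes of GABA-B receptors and receptor scaffolds, 6 were measured, by 8 probes. A probe of Nsf, the ATPase that recycles SNARE complexes, met the rule in the COX-2 KO cortex against wild type (0.223) and against COX-2 HET (0.189), where 1.89% of the tested probes were called in this direction. The other Nsf probe differed by -0.0411 and -0.0612 in the same comparisons. In the SLC6 family, 4 of 20 genes had a probe, namely Slc6a13, the taurine transporter Slc6a6, the creatine transporter Slc6a8 and the imino acid transporter Slc6a20a, and Slc6a13 alone met the rule between genotypes. Between the regions, limma called a Glud1 probe in COX-1 WT, in COX-1 KO and over 5 genotypes. It called a Slc6a8 probe in COX-1 WT and over 5 genotypes. Of Nsf it called 1 probe in COX-2 WT and COX-2 HET, and the other in COX-2 KO. All were higher in hippocampus. Limma called 28.5%, 25.2% and 31.4% of the tested probes in COX-1 WT, in COX-1 KO and over 5 genotypes. In COX-2 WT, COX-2 HET and COX-2 KO it called 4.14%, 12.6% and 0.635%.

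Genes near Slc6a13 on chromosome 6 were measured by 13 probes of 8 genes within 1 Mb, the nearest being A2m, a plasma protease inhibitor, 298 kb away. Of these, 7 probes of 4 genes (Cecr2, Kdm5a, M6pr and Phc1) had own values on the COX-1 cortex arrays, and 2 of them had a mean Z above 0. Their differences lay between -0.0911 and 0.0402 in COX-1 KO cortex, with the sign of Slc6a13 in 4 probes. In COX-2 KO cortex they lay between 0.0285 and 0.299, with its sign in all 7. In COX-2 HET cortex they lay between -0.0190 and 0.135, with its sign in 5. The remaining probes could be used in the cortex of the COX-2 line only. Of these, A2m (-0.0315) and a further M6pr probe (-0.0760) were below wild type in COX-2 KO cortex, and the others were above it by 0.0469 to 0.0681. In COX-2 HET cortex the remaining probes were above wild type by 0.0469 to 0.123. None of the 13 probes met the study's rule in these comparisons. The share of all probes with the same signs was not counted.

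The tissue labels could be checked only in part. None of 10 cortical markers and none of 14 markers of GABA interneurons had a probe, and of 10 hippocampal markers only Zbtb20 was measured. Leptomeningeal fibroblasts, cells in which Slc6a13 is known to be expressed, were represented by 11 of 20 listed genes, by 18 probes, 15 of them with own values on all arrays. The mean Z of these 15 probes was 0.306 in COX-1 KO, 0.302 in COX-2 KO, 0.300 in COX-2 HET, 0.302 in COX-1 WT and 0.287 in COX-2 WT cortex. In the hippocampus it was 0.319, 0.315, 0.308, 0.333 and 0.324 in the same order of groups. In COX-1 KO cortex 8 of the 15 probes were above wild type, with a median difference of 0.0115, beside 0.00269 over all probes. A probe of the fibrillar collagen Col1a1 met the study's rule as higher there, as 2.66% of the tested probes did. In COX-2 KO cortex 10 of the 18 probes were above wild type, with a median of 0.0391, beside -0.00316 over all probes. In COX-2 HET cortex 15 of the 18 were above it, with a median of 0.0283, beside 0.00306. The study's rule was met by 0 of the 18 probes in either COX-2 comparison. Of 10 choroid plexus markers 3 were measured. In COX-2 HET cortex they differed from wild type by -0.0241 to 0.492 (median 0.00349, beside 0.00306 over all probes), with 2 above it. In COX-2 HET hippocampus they differed by -0.584 to -0.0752 (median -0.173, beside -0.00181). The values of 0.492 and -0.584 are those of Ttr, while Otx2 and Calml4 had mean Z of -0.269 and -0.850, below the tested level. In COX-2 KO cortex 1 of the 3 was above wild type (median -0.00559, beside -0.00316). The study's rule was met by 0 of them in these comparisons. Of the astrocyte probes, 3 had own values on all arrays, and 1 of these was above wild type in COX-1 KO cortex (median -0.150, beside 0.00269 over all probes). Of all 6 probes, 5 were above wild type in COX-2 KO cortex (median 0.0608, beside -0.00316) and 4 in COX-2 HET cortex (0.0319, beside 0.00306). The 3 probes usable in both lines, of Slc1a3 and Gja1, differed by 0.0815, 0.0968 and -0.107 in COX-2 KO cortex. The study's rule was met by 0 astrocyte probes in these comparisons. The part of meningeal or other tissue in the Slc6a13 values was not tested.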

How the data were processed

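The authors labelled cDNA from total RNA with 33P-dCTP, hybridised it to nylon membranes, read these with a phosphoimager and ArrayPro, and converted intensities to Z scores per array in Excel. The values deposited by the authors are these scores. Tissue of 3 mice per group and triplicate hybridisation are stated, but the labels do not say whether replicate numbers are mice or membranes, so p-values measure the spread between arrays. Their number limits the precision.

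In R 4.3.3, limma 3.58.1 fitted group means to the arrays of each region, 15 per region, or to all 30 for contrasts of regions, with Benjamini-Hochberg adjustment over probes with a mean Z above 0. On simulated data, the fit gave the p-values of limma's own function. The study's rule was applied with the SD of all differences as the divisor of the z ratio, in place of the SD of an array that the methods name. Gene symbols come from the platform annotation, updated through RefSeq. Named genes were Slc6a13, GABA-list members called by a test, measured GABA transporters, and the 5 probes with the highest and 3 with the lowest r. Other measured members of some lists were named to show what the lists hold. The A2m and Col1a1 values were chosen after they were seen.

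Alternatives tried were quantile normalization or centring on the median, a mean Z filter of 0.5 or none, a stricter z ratio of 2, the SD within a part of the table, limma's p in the rule, both lines' wild types as control, running medians along the rows, other sets of arrays, an intensity trend, a replicate block and each array left out. The array SD as divisor, the surrounding-spot subtraction, the region differences of effects and the other line's wild type as control were added after the data were seen. The gene, the lists and the tests were chosen with earlier results of these data known. Figures were drawn with matplotlib 3.10.9.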

Additional observations from a re-analysis of the deposited data

Results flagged for a closer look

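The effects of the deletions on Slc6a13 in the cortex went in opposite directions, every COX-2 KO array lying above the mean of its wild type and every COX-1 KO array below the mean of its own. The difference of 0.335 was tested and did not pass the threshold (adjusted p = 0.140 in limma). The COX-2 HET effect was lower in hippocampus than in cortex by -0.337 (adjusted p = 0.0104), every array moving down in hippocampus and up in cortex. The COX-1 KO effect was flagged because the arrays moved in opposite directions in the regions, with a difference of 0.205 (adjusted p = 0.130). With 3 arrays in a group, single arrays could not be screened as outliers.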

How the results depend on the processing

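Running medians along the rows subtracted from each array turned 4 differences, none of which passed limma's threshold before: COX-1 KO minus WT hippocampus (-0.0257), COX-2 WT minus COX-1 WT hippocampus (-0.119), and hippocampus minus cortex in COX-1 WT (0.0703) and over 5 genotypes (0.0126). It also brought COX-1 KO hippocampus minus cortex past the threshold (0.145) and the region difference of the COX-2 HET effect below it (-0.256), and gave z ratios of -1.19, 1.25 and 1.34 in COX-1 KO, COX-2 KO and COX-2 HET cortex. Subtracting the surrounding spots of the own block turned COX-2 KO minus HET cortex (0.00845), COX-1 KO minus WT hippocampus (-0.0408), the line difference in hippocampus (0.0183), COX-2 WT minus COX-1 WT hippocampus (-0.112), and hippocampus minus cortex in COX-1 WT (0.110) and over 5 genotypes (0.0257). It brought COX-1 KO hippocampus minus cortex past the threshold (0.146), COX-2 HET hippocampus minus cortex below it (-0.125) and the region difference of the HET effect below it (-0.172), with z ratios of -0.953, 0.854 and 0.646. With the adjacent blocks added, COX-2 KO minus WT hippocampus (0.0136), the line difference in hippocampus (0.00575), COX-2 WT minus COX-1 WT hippocampus (-0.0952), and hippocampus minus cortex in COX-1 WT (0.0490) and over 5 genotypes (0.00740) turned, COX-1 KO hippocampus minus cortex passed (0.169) and the region difference of the HET effect did not (-0.166), with z ratios of -1.38, 0.944 and 0.871. The cause was not tested.

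All 30 arrays in the fit, or the intensity trend, brought the line difference in cortex (0.335) and COX-2 WT minus COX-1 WT cortex (-0.182) past the threshold. With both wild types as control COX-2 KO hippocampus turned (0.00289), and the z ratios in COX-1 KO, COX-2 KO and COX-2 HET cortex were -0.968, 0.848 and 1.04. At a z ratio beyond 2, the values of -1.86, 1.68 and 1.98 no longer met the rule, nor did -1.48 with the SD within the part. Divided by the SD of an array, the differences of -0.165, 0.170 and 0.212 did not meet it.

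Leaving out 1 array at a time, the z ratio ranged from -2.15 to -1.34 in COX-1 KO cortex and from 1.33 to 1.88 in COX-2 KO cortex. The hippocampus minus cortex difference ranged from -0.154 to -0.0737 in COX-1 WT, from 0.0365 to 0.132 in COX-1 KO, from 0.0576 to 0.135 in COX-2 WT and from -0.0596 to -0.0404 over 5 genotypes. COX-2 WT minus COX-1 WT hippocampus ranged from -0.0123 to 0.0527 (-0.00631 without COX-1 WT replicate 1 and -0.0123 without COX-2 WT replicate 2). COX-2 KO minus WT hippocampus ranged from -0.0408 to 0.0296 (0.0296 without COX-2 WT replicate 2, 0.00169 and 0.00458 without COX-2 KO replicates 1 and 3).

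Same-numbered arrays of a genotype in both regions had deviations correlated with a median r of 0.0827, over 0.1 in 7 of 15 pairs. Over any groups, the median r was 0.118 for the same number, over 0.1 in 75 of 135 pairs, and -0.0588 for other numbers, over 0.1 in 23 of 270. Since not every pair was over 0.1, the numbers were not read as pairs. So strict a condition cannot exclude pairing, or something else shared by arrays of the same number. Deviations from a group mean cancel within the group, so the values for same and other numbers are not independent of each other. With the replicate block the line difference in cortex stayed at 0.335 (adjusted p = 0.140) and COX-2 HET hippocampus minus cortex at -0.238 (adjusted p = 0.00241), and no call on Slc6a13 changed. Over all alternatives, 371 limma values for Slc6a13 kept sign and side of the threshold, 21 turned, 9 came past it and 4 fell below it.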
